A study of Homo sapiens with 23 samples.

Results

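The genes described here encode 10 growth factor receptor tyrosine kinases of luminal breast cancer: the ERBB receptors (EGFR, ERBB2, ERBB3 and ERBB4), the FGF receptors (FGFR1, FGFR2, FGFR3 and FGFR4), the IGF-1 receptor (IGF1R) and the insulin receptor (INSR). They were chosen by name as the rows of the gene count table whose Ensembl identifiers carry these symbols in GENCODE. All 10 of the 10 were found among 60605 gene rows, and all 10 passed the filter on low counts, which kept 26057 genes. The assay was precision run-on sequencing (PRO-seq), in which polymerases engaged on a gene extend their RNA by a labelled nucleotide, so that the counts follow ongoing transcription rather than mRNA abundance.

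T47D cells, a luminal breast cancer line that expresses the estrogen receptor, were used as a single clone (dTAG-TRPS1 Clone 28) in which a degron tag was inserted at the endogenous TRPS1 gene. TRPS1 is an atypical GATA-family transcription factor known mainly as a repressor. Treated cells received dTAG-13 and dTAG-V-1, 50 nM of each, for 0.5, 1, 2, 4 or 24 h, and both compounds recruit ubiquitin ligases to the tagged protein. The control cells carried the same tag and received the solvent DMSO for 24 h. All groups share the tag, the clone and a growth medium with serum and added insulin, and per the study's methods the clone makes only tagged TRPS1, some of its TRPS1 copies being knocked out. There were 4 libraries for DMSO and for each time up to 4 h and 3 libraries at 24 h (replicates 2, 3 and 4). Per the methods the replicates of a group were handled at different moments of one day, and the time points of a replicate were collected together. Same-numbered libraries were taken to share a harvest, which the labels do not state. The p-values of a fit by group alone thus measure the spread between harvests of one clone. Those of a fit with the replicate number as a block measure the spread left after differences between replicate numbers are removed.

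Receptor tyrosine kinases sit in the plasma membrane and bind growth factors outside the cell. Ligand binding pairs ERBB and FGF receptors, which phosphorylate each other on tyrosines and so recruit adaptors that start the RAS-MAPK and PI3K-AKT cascades. ERBB2 has no known ligand and acts as the preferred partner of the other ERBB receptors, and ERBB3 has a weak kinase but many docking sites for PI3K. FGF receptors bind FGFs together with heparan sulfate proteoglycans, and IGF1R and INSR signal through insulin receptor substrates such as IRS1. Amplification of ERBB2 and of FGFR1 is well known in breast cancer.

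Library totals ranged from 4408544 to 17571616 counts with a median of 9768427, and the replicate 1 libraries were shallow, with totals from 4408544 to 7886241. The luminal markers ESR1, GATA3, KRT8, KRT18, KRT19, EPCAM and CDH1 were present in every library. Their summed level was 4285 to 4542 CPM (counts scaled by library size) in DMSO, and lower without overlap at 0.5 h (4055 to 4175) and 1 h (4031 to 4204), while the ranges at 2 h (4010 to 4302), 4 h (4049 to 4457) and 24 h (4078 to 4341) overlapped with DMSO. GATA3 was the marker of this list that passed without the block, with log2 fold changes of -0.22, -0.22, -0.16 and -0.13 at 0.5, 1, 2 and 4 h. With the block KRT19 also passed at 0.5, 1, 2 and 24 h (-0.14 to -0.21) and KRT8 at 1 h (-0.20). Of 9 basal, stromal and immune markers, 4 (KRT5, KRT14, COL1A2 and CD3E) did not pass the filter on low counts. The summed level of those 9 was 38.4 to 41.3 CPM in DMSO and 46.9 to 48.4 CPM at 24 h, with TP63 at 19.7 CPM on average in DMSO. TP63 passed as higher at 1, 2, 4 and 24 h (0.49, 0.37, 0.44 and 0.49), and with the block at 0.5 h as well (0.30). The part of these marker changes in the results was not tested. The TRPS1 gene itself was not a check of the treatment, since the compounds act on the protein. Its nascent transcription differed from DMSO by 0.13 to 0.28 on the log2 scale over the 5 times, with a smallest adjusted p of 0.288 without and 0.000135 with a replicate block.

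Reads were counted over whole gene spans, introns included, as the densities of small genes nested in larger ones show. Nested genes on the same strand as their host had a median density of 1.35 times that of the host (154 genes), against 0.0303 times on the opposite strand (132 genes). Genes on the opposite strand that overlap a receptor gene, such as LETM2 with FGFR1 or PGAP3 and MIEN1 with ERBB2, therefore add few reads to it. The ERBB3 gene shares 2175 bases with ENSG00000257411 on the same strand. The mean count of that gene over its whole length was 673, beside 983 for ERBB3. How many of the 673 fall in the shared bases was not determined, so the ERBB3 values are uncertain by an unknown part of them. Each fold change is for a whole span, from 11.2 kb for FGFR4 to 1163 kb for ERBB4. Parts of a span were not compared.

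Levels between genes were compared as CPM per kb of gene span in DMSO, with the SD over n = 4 libraries. ERBB3 had the highest density as counted, 3.68 ± 0.217. Its reads were not separated from those of ENSG00000257411 on the same strand, so this first place is uncertain. ERBB2 followed at 1.99 ± 0.0670, FGFR3 at 1.95 ± 0.331 and ERBB4 at 1.50 ± 0.179. The libraries of ERBB2 and FGFR3 overlapped, as did those of FGFR3 and ERBB4, so the order among these neighbours is not resolved. IGF1R had 0.844 ± 0.0242, which is close to the median of 0.867 over 15720 kept protein-coding genes. Below it came FGFR4 at 0.727 ± 0.0580, FGFR2 at 0.599 ± 0.0323 and FGFR1 at 0.530 ± 0.0274, none of which overlapped with its neighbours. INSR had 0.166 ± 0.00888 and EGFR 0.103 ± 0.00539. EGFR, the first ERBB receptor, stood at percentile 17.2 of the kept protein-coding genes, and ERBB3, as counted, at percentile 90.9. Per kb of exon instead of span, ERBB4 came first at 134 CPM per kb and IGF1R second at 19.1, because exons cover 1.12% and 4.41% of their spans. The span is the scale used here, since introns were counted.

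**Figure D1:**
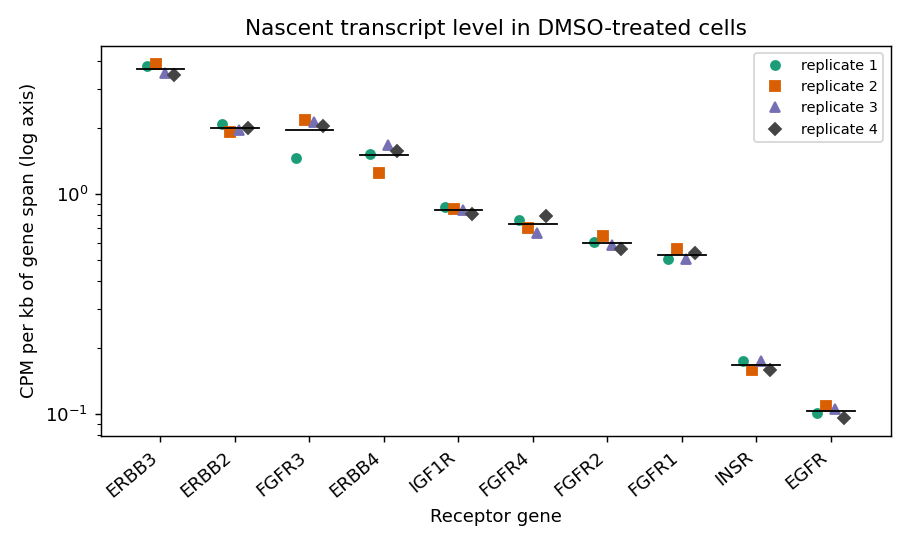
Nascent transcript level of the 10 receptor genes in DMSO-treated cells, as CPM per kb of gene span on a log axis, ordered by mean. Each symbol is 1 of 4 libraries and the line is their mean. ERBB3 stands highest at 3.68 as counted, with reads of an overlapping gene on the same strand not separated. INSR and EGFR stand apart at 0.166 and 0.103.

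FGFR1 was the receptor gene that passed against DMSO in the fits of all libraries, as lower at 2 and 4 h. It lies on chromosome 8 from 38400215 to 38468834 on the minus strand (hg38), a span of 68.6 kb. In DMSO its 4 libraries had 34.9, 38.7, 34.8 and 37.1 CPM. After 2 h of treatment the values were 30.6, 28.8, 32.4 and 26.4 CPM. After 4 h they were 26.8, 29.0, 26.9 and 30.7 CPM, so that no library at 2 or 4 h reached the lowest DMSO library. At 2 h FGFR1 changed by -0.30 ± 0.07 (log2 fold change ± SE, n = 4 against 4, adjusted p = 0.0789), and at 4 h by -0.35 ± 0.07 (adjusted p = 0.0243, edgeR quasi-likelihood test, calls at an adjusted p under 0.1). As a percentage this is a change of -18.8% (95% confidence interval -26.9% to -9.78%) at 2 h and of -21.7% (-29.7% to -12.9%) at 4 h. With the replicate number as a block, the adjusted p was 0.0199 at 2 h and 0.00712 at 4 h.

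The earlier times gave smaller values for FGFR1. The libraries had 30.9, 34.5, 30.5 and 35.1 CPM at 0.5 h. They had 28.7, 36.3, 33.1 and 31.6 CPM at 1 h, and both times overlapped with DMSO. Log2 fold changes of -0.15 ± 0.07 and -0.16 ± 0.07 did not pass (adjusted p of 0.668 and 0.518). Each treated library up to 4 h was lower than the DMSO library of the same number, in 16 of 16 pairs. These pairs share 4 DMSO libraries and are not independent, so the count is a description. Over the course from DMSO to 4 h as a whole, FGFR1 did not pass without the block (adjusted p = 0.11) and passed with it (adjusted p = 0.035).

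At 24 h FGFR1 stood at 37.6, 37.9 and 35.1 CPM in replicates 2, 3 and 4, within the range of DMSO. The log2 fold change against DMSO was 0.02 ± 0.08 with an interval of -0.14 to 0.18. Compared directly, 24 h was higher than 4 h by 0.37 ± 0.08 (adjusted p = 0.0428, and 0.0121 with the block), higher in 3 of 3 same-numbered pairs. This comparison was added after the values had been seen.

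The shares of all tested genes that passed in these comparisons give the background. At 2 h 0.733% of genes passed without the block and 2.43% with it, and at 4 h 0.833% and 2.49%. Between 24 h and 4 h 0.453% and 1.77% passed, and over the course to 4 h 1.33% and 4.60%. Among the 10 receptor genes, 1 passed at 2 h and at 4 h in either fit. None passed against DMSO at 0.5 h (background 0.476%, and 2.48% with the block), at 1 h (1.25%, and 3.25%) or at 24 h (0.863%, and 2.65%). At an unadjusted p under 0.05 there were 2, 2, 1, 1 and 1 of 10 at the 5 times without the block, where 7.68%, 9.42%, 7.10%, 7.47% and 7.38% of all genes lay under 0.05. With the block there were 3, 4, 3, 3 and 3 of 10, where 12.2%, 13.4%, 11.2%, 10.7% and 10.9% of all genes did. The median log2 fold change of the 10 genes was 0.00, -0.05, -0.01, -0.02 and 0.02, beside 0.01, 0.01, 0.00, 0.01 and 0.00 over all genes.

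The FGFR1 calls have limited depth behind them, with 101 to 685 counts per library. Both the 2 h and the 4 h call were lost without the block when replicate 2, 3 or 4 was left out of every group (adjusted p of 0.191 to 0.727 at 2 h and 0.122 to 0.284 at 4 h), and with library totals in place of TMM scaling (0.555 and 0.181), while the change stayed between -0.24 and -0.39. With the block the 2 h call was lost without replicate 2 or 4 (adjusted p of 0.252 and 0.206) and the 4 h call without replicate 2 (0.123).

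**Figure D2:**
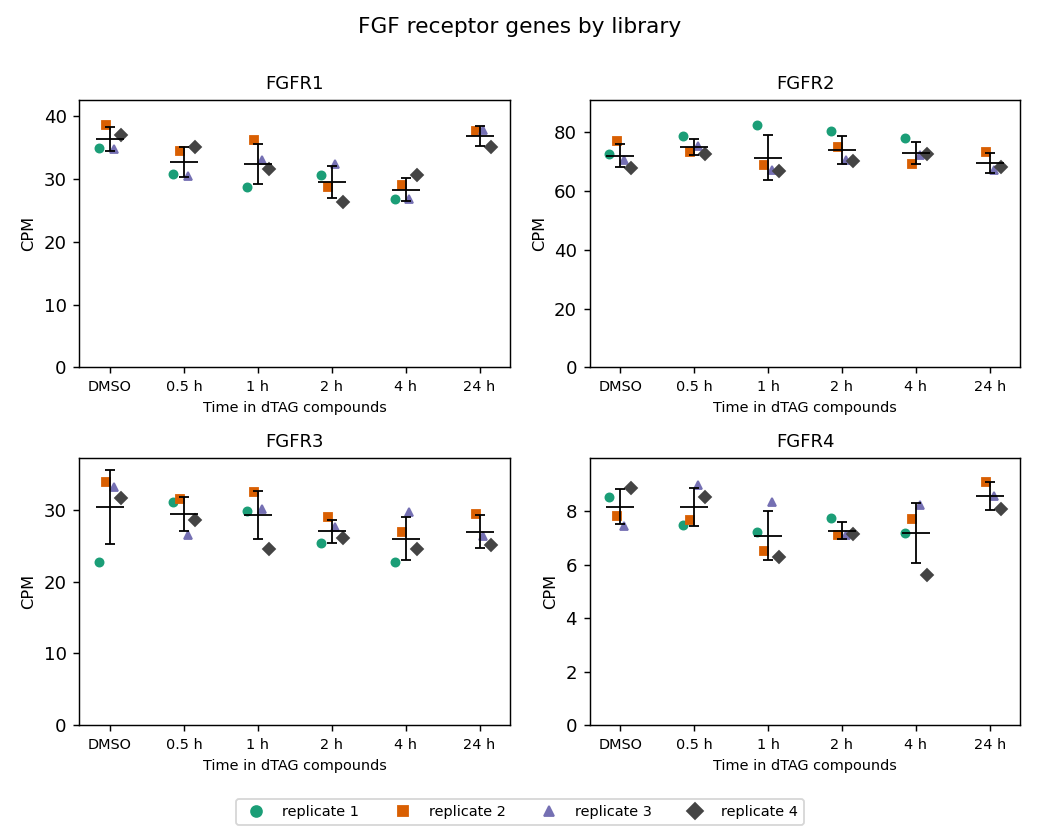
CPM of the 4 FGF receptor genes in each library, for DMSO and 5 times in the dTAG compounds, with the mean and SD of each group as a bar with whiskers and axes that start at 0. The FGFR1 libraries at 2 h and 4 h lie between 26.4 and 32.4 CPM, all below the lowest DMSO library at 34.8, and return to 35.1 to 37.9 at 24 h.

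The other FGF receptor genes did not pass at any time. FGFR3, known for its mutations in bladder cancer, lies on chromosome 4 (1793293 to 1808872, plus strand). Its DMSO libraries had 22.8, 33.9, 33.2 and 31.7 CPM, replicate 1 being far below the other three. The 4 h libraries had 22.8, 26.9, 29.7 and 24.6 CPM, and replicates 2, 3 and 4 at 24 h had 29.5, 26.4 and 25.1 CPM. FGFR3 stood at -0.17 ± 0.11, -0.22 ± 0.11 and -0.18 ± 0.12 (log2 against DMSO) after 2, 4 and 24 h, with adjusted p of 0.882, 0.695 and 0.846, and 0.429, 0.301 and 0.334 with the block. Leaving replicate 1 out of every group moved these to -0.26, -0.29 and -0.30. They then passed with the block (adjusted p of 0.0528, 0.0359 and 0.0186) and not without it (0.426, 0.343 and 0.25).

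FGFR2, a known breast cancer risk gene, lies on chromosome 10 (121478332 to 121598458, minus strand). It had 72.5, 77.0, 70.5 and 67.7 CPM in DMSO and 78.1, 69.1, 72.4 and 72.6 CPM at 4 h, which overlap. Its log2 fold changes ran from -0.05 to 0.06 over the 5 times, and no 95% interval reached beyond 0.19 in size. FGFR4 was the receptor gene with the fewest counts, 27 to 156 per library, and lies on chromosome 5 (177086905 to 177098144, plus strand). It had 8.54, 7.82, 7.44 and 8.87 CPM in DMSO and 7.17, 7.73, 8.22 and 5.62 CPM at 4 h. Its log2 fold changes ran from -0.19 to 0.07. The intervals reached down to -0.47, -0.40 and -0.43 at 1, 2 and 4 h, and these intervals include the value of FGFR1 at 4 h.

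Because TRPS1 binds GATA sequences and the study examined the estrogen receptor as well, the promoter windows of the receptor genes were searched for AGATAA and for the estrogen receptor half-site AGGTCA on both strands. RefSeq windows (GRCh38.p14, 250 bases before to 50 bases after each start) were found for 8 of the 10 genes, 14 windows in all, and not used here for FGFR1 and ERBB3. AGATAA was in 2 of the 14 windows, of FGFR2 and FGFR4, beside 10.3% of all 35116 windows. AGGTCA was in a window of FGFR2 alone, beside 13.8% of all windows. The stretch before an alternative start of FGFR4 is shown, the match that lies outside annotated UTRs, at chr5:177089426-177089531 on the plus strand with the match in capitals, read as AGATAA on the other strand and starting 74 bases before the start.
FGFR4: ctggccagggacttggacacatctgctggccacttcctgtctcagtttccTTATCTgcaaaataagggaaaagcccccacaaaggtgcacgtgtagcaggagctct
The letters are a description of the sequence, and FGFR4 did not pass at any time.

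Among the ERBB receptor genes, ERBB2 and ERBB3 had their lowest levels at 0.5 and 1 h. ERBB2 lies on chromosome 17 (39687914 to 39730426, plus strand). Its DMSO libraries had 88.3, 81.5, 83.5 and 85.0 CPM. Those at 0.5 h had 80.3, 80.7, 77.8 and 75.0 CPM, and those at 1 h 77.5, 79.2, 76.9 and 80.5 CPM. No library at 0.5 or 1 h reached the lowest DMSO library, but the differences were small. The log2 fold change was -0.11 ± 0.05 at both times and did not pass (adjusted p of 0.637 and 0.542, and 0.225 and 0.235 with the block). At 2, 4 and 24 h it was 0.02, -0.00 and -0.01.

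ERBB3 lies on chromosome 12 (56076799 to 56103505, plus strand). Its DMSO libraries had 102, 104, 94.6 and 92.3 CPM. Those at 0.5 h had 90.9, 94.3, 85.2 and 88.8 CPM, and those at 1 h 97.3, 87.7, 87.5 and 89.0 CPM. Each library at 0.5 and 1 h was below the DMSO library of its own number, although the groups overlapped. The log2 fold change was -0.13 ± 0.05 and -0.12 ± 0.05, with adjusted p of 0.505 and 0.466, and 0.114 and 0.135 with the block. At 24 h ERBB3 had 101, 98.9 and 101 CPM. The difference between 24 h and 0.5 h was 0.16 ± 0.06 without the block (adjusted p = 0.223) and 0.18 ± 0.04 with it (adjusted p = 0.0131), and it was the receptor gene that passed there, where 1.99% of all genes passed without the block and 6.34% with it. The blocked call was lost without replicate 3 or 4 (adjusted p of 0.233 and 0.157).

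EGFR lies on chromosome 7 (55019017 to 55211628, plus strand). It had 19.5, 20.9, 20.3 and 18.4 CPM in DMSO and 22.9, 23.7 and 23.5 CPM at 24 h, so that the groups did not overlap. The log2 fold change at 24 h was 0.24 ± 0.08 with an interval of 0.07 to 0.41, the largest change of the 10 genes at that time, and it did not pass (adjusted p = 0.317, and 0.173 with the block). Earlier values were 0.01, 0.05, 0.09 and 0.13 at 0.5, 1, 2 and 4 h.

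ERBB4, the neuregulin receptor with a reported role in mammary differentiation, lies on chromosome 2 (211375717 to 212538841, minus strand) and spans 1163 kb. It had the most counts of the 10 genes, 7814 to 36745 per library, yet its replicates differed widely. It had 1773, 1450, 1939 and 1811 CPM in DMSO and 2075, 1675, 1972 and 1999 CPM at 4 h, with replicate 2 lowest in both groups. Its log2 fold changes ran from 0.03 to 0.15. The largest, 0.15 at 4 h, had an SE of 0.11 without the block and 0.05 with it, and adjusted p of 0.93 and 0.12.

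Neither IGF1R nor INSR passed at any time. IGF1R lies on chromosome 15 (98648539 to 98964530, plus strand) and had 274, 268, 267 and 256 CPM in DMSO and 270, 253, 250 and 258 CPM at 4 h. Its log2 fold changes ran from -0.06 to 0.00, and no 95% interval reached beyond 0.14 in size, the narrowest bound of the 10 genes. This bound is for the whole span of 316 kb, not for parts of it. INSR lies on chromosome 19 (7112255 to 7294414, minus strand) and had 31.6, 28.8, 31.6 and 28.8 CPM in DMSO and 30.8, 25.9, 30.3 and 36.7 CPM at 4 h. Its log2 fold changes ran from -0.00 to 0.08, with intervals within 0.24 in size.

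**Figure D3:**
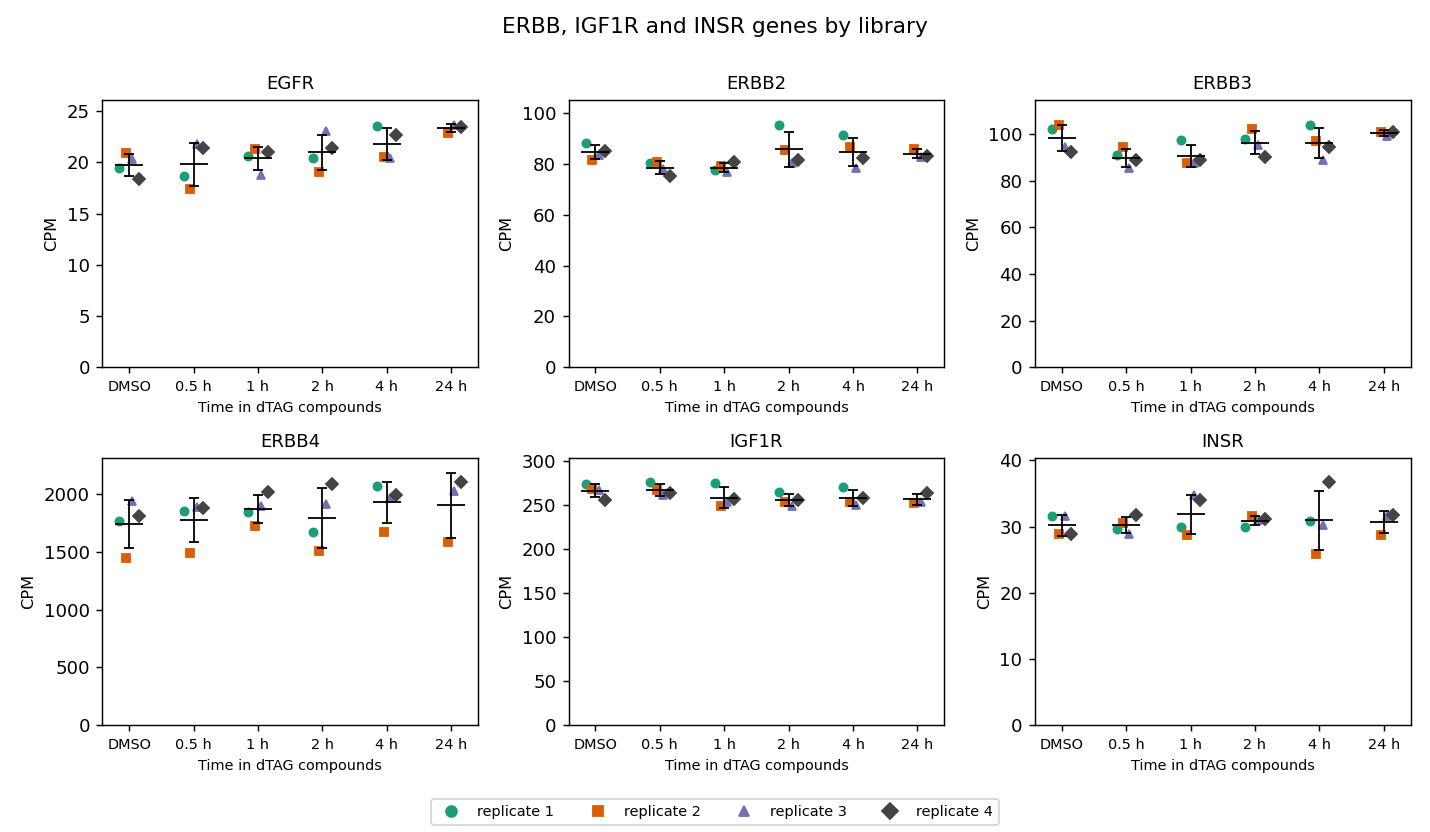
CPM of the 4 ERBB genes, IGF1R and INSR in each library, for DMSO and 5 times in the dTAG compounds, with the mean and SD of each group as a bar with whiskers and axes that start at 0. ERBB2 at 0.5 and 1 h lies between 75.0 and 80.7 CPM, below DMSO, and EGFR at 24 h lies between 22.9 and 23.7 CPM, above DMSO.

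**Figure D4:**
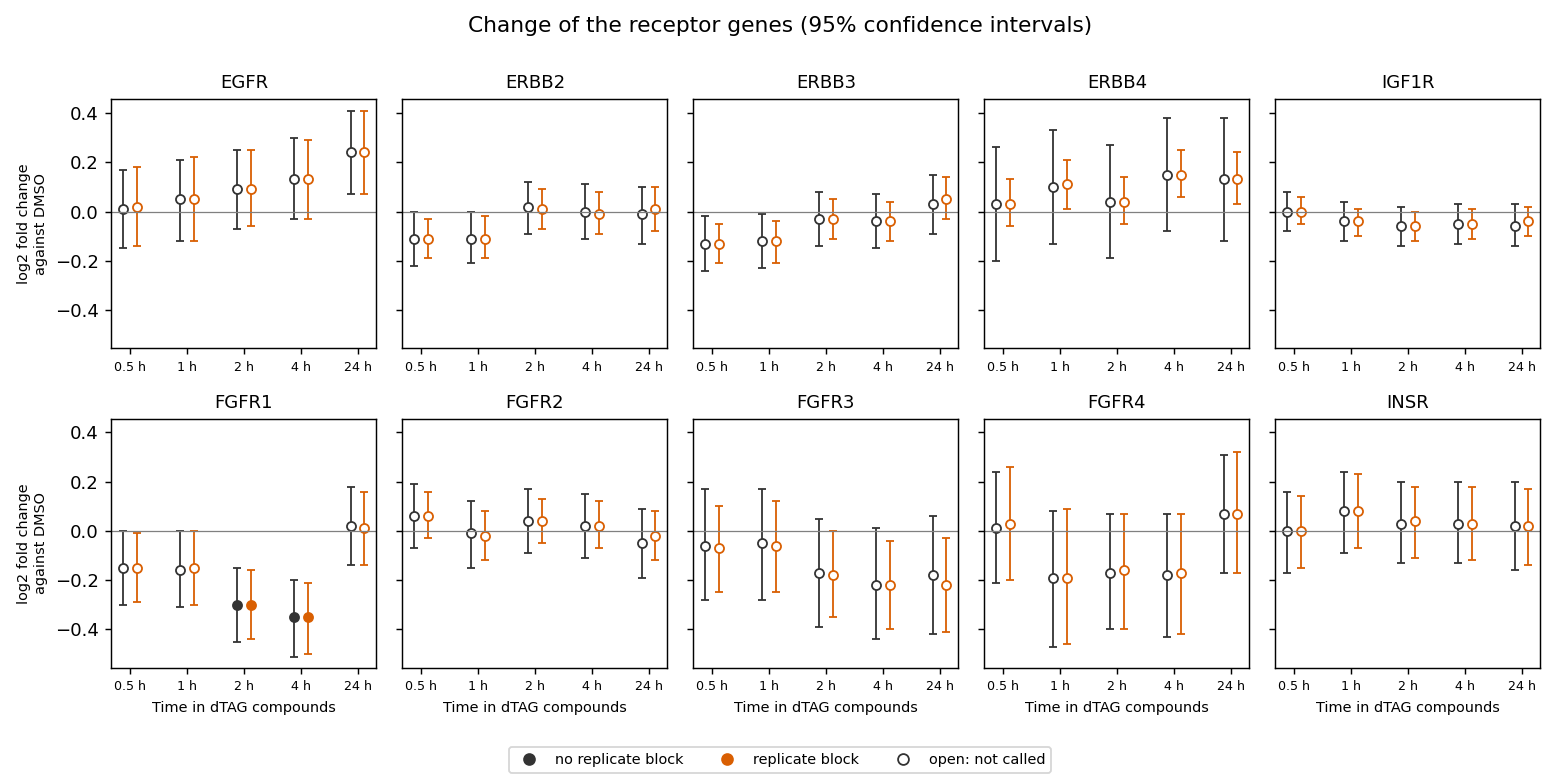
Log2 fold change of each receptor gene against DMSO at 5 times, with 95% confidence intervals, without (black) and with (orange) the replicate block. Filled points passed at an adjusted p under 0.1, which FGFR1 did at 2 and 4 h with values of -0.30 and -0.35.

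The genes around these receptors were taken from 7 lists of ligands, co-receptors, adaptors, kinases and feedback inhibitors, 127 genes of which 103 passed the filter. Of these 103, 0, 4, 1, 3 and 2 passed at 0.5, 1, 2, 4 and 24 h, or 0.00%, 3.88%, 0.971%, 2.91% and 1.94%. At 1 h 1 was higher and 3 were lower, at 4 h 1 was higher and 2 were lower, and at 24 h both were higher. With the block the counts were 5, 8, 6, 7 and 6, of which 1, 2, 3, 4 and 5 were higher. As shares of the 103 these were 4.85%, 7.77%, 5.83%, 6.80% and 5.83%. Of all tested genes 0.476%, 1.25%, 0.733%, 0.833% and 0.863% passed at these times without the block. With it 2.48%, 3.25%, 2.43%, 2.49% and 2.65% did. These shares are also the background for the single lists below. The background covers all 26057 kept genes, of which 15720 are protein-coding. The lists were chosen with earlier results of these data known, and a difference between the shares was not tested. The medians over the 103 genes lay between -0.03 and 0.03.

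Of the ligands, none passed without the block. AREG, the gene of the EGFR ligand amphiregulin and a known estrogen target, was lower by -0.23 ± 0.08 at 24 h (adjusted p = 0.338) and passed with the block (-0.23 ± 0.06, adjusted p = 0.0564), while the other 8 kept ERBB ligands did not pass in either fit. Of 22 FGF ligand genes 9 were kept, and of 10 insulin, IGF and IGF-binding protein genes 6 were kept, and none of these passed at any time in either fit.

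Of the 7 kept co-receptors and related receptors, 0, 2, 1, 2 and 0 passed at 0.5, 1, 2, 4 and 24 h, each of them lower. Of all genes 1.25%, 0.733% and 0.833% passed at 1, 2 and 4 h in the same fit. The medians of the 7 were -0.10, -0.04, -0.19, -0.23 and 0.02, beside 0.01, 0.01, 0.00, 0.01 and 0.00 over all genes. GPC1, a heparan sulfate proteoglycan of the cell surface, had 46.7, 48.8, 42.0 and 49.4 CPM in DMSO and 37.4, 35.7, 38.3 and 37.5 CPM at 1 h, with no overlap. GPC1 changed by -0.33 ± 0.06, -0.30 ± 0.06 and -0.23 ± 0.06 (log2) after 1, 2 and 4 h (adjusted p of 0.00547, 0.0103 and 0.0701), and 0.02 at 24 h. FGFRL1, an FGF receptor relative that lacks the kinase, changed by -0.37 ± 0.09 at 1 h (adjusted p = 0.0582). At 2 h it stood at -0.19 ± 0.09 and did not pass (adjusted p = 0.641, and 0.246 with the block). At 4 h it stood at -0.34 ± 0.09, which passed with the block alone (adjusted p of 0.115 and 0.0199). SDC1, the proteoglycan syndecan 1, changed by -0.35 ± 0.09 at 4 h (adjusted p = 0.0976) after -0.33 ± 0.09 at 2 h, which passed with the block alone (adjusted p of 0.126 and 0.0441). At 1 h SDC1 stood at 0.02 ± 0.09, with means of 15.9 CPM and 15.8 CPM in DMSO.

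Adaptors were mixed. FRS2, the docking protein of the FGF receptors, had 749, 626, 777 and 706 CPM in DMSO and 856, 825, 828 and 829 CPM at 1 h. It rose by 0.22 ± 0.06 at 1 h (adjusted p = 0.0645), and with the block it passed at all 5 times, with values of 0.13 to 0.23. It was higher than the DMSO library of the same number in 19 of 19 pairs, which share 4 DMSO libraries and are not independent. IRS1, the docking protein of IGF1R and INSR, had 97.2, 89.0, 100 and 91.5 CPM in DMSO and 120, 117 and 123 CPM at 24 h. It rose by 0.21 ± 0.05 at 4 h and 0.34 ± 0.05 at 24 h (adjusted p of 0.0586 and 0.00173), while IGF1R and INSR did not pass. NCK2, an adaptor of the cytoskeleton, fell at 1 h (-0.24 ± 0.05, adjusted p = 0.0228). SOS2, an exchange factor that activates RAS, passed with the block alone at 0.5 h (-0.15 ± 0.04, adjusted p = 0.0563). The kinases and subunits downstream had no call without the block among 24 kept genes. With it PIK3R3 and PIK3CA were lower at 0.5 h (-0.19 and -0.18, adjusted p of 0.00937 and 0.0428) and PIK3R1 was higher at 24 h (0.18, adjusted p = 0.00289). Of 27 kept feedback inhibitors and phosphatases, LRIG1, which promotes degradation of ERBB receptors, rose by 0.14 ± 0.03 at 24 h (adjusted p = 0.0782). In the same list CBL, a ubiquitin ligase for activated receptors, passed with the block alone at 0.5 h (-0.15 ± 0.04, adjusted p = 0.08). SPRED2, an inhibitor of RAS-MAPK signalling, did so at 1 h (-0.16 ± 0.04, adjusted p = 0.0503), as did the ERK phosphatase gene DUSP5 (-0.29 ± 0.09, adjusted p = 0.0935), all 3 lower.

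For each named gene of these lists, replicates were left out in turn at the time of its smallest p. Without the block, GPC1 at 1 h was lost without replicate 2 or 4 (adjusted p of 0.145 and 0.198) and IRS1 at 24 h without replicate 4 (0.155). FGFRL1 and NCK2 at 1 h were lost without replicate 2, 3 or 4 (0.325 to 0.474 and 0.113 to 0.287). SDC1 at 4 h (0.196 to 0.462), FRS2 at 1 h (0.113 to 0.478) and LRIG1 at 24 h (0.175 to 0.804) were lost without any 1 of the 4. In the blocked fit the same calls of FRS2, GPC1 and IRS1 held without each replicate (largest adjusted p of 0.046, 0.0624 and 0.0143). FGFRL1 was lost there without replicate 3 or 4 (0.114 and 0.121) and NCK2 without replicate 2 or 3 (0.128 and 0.142). SDC1 (0.147 to 0.27) and LRIG1 (0.107 to 0.302) were lost there without replicate 2, 3 or 4. With the block, AREG at 24 h (0.1 to 0.49), PIK3R3 (0.122 to 0.175), PIK3CA (0.14 to 0.29) and CBL (0.218 to 0.407) at 0.5 h were lost without replicate 2, 3 or 4. PIK3R1 at 24 h was lost without replicate 2 or 3 (0.118 and 0.113) and SPRED2 at 1 h without replicate 3 or 4 (0.322 and 0.186). SOS2 at 0.5 h (0.121 to 0.263) and DUSP5 at 1 h (0.138 to 0.394) were lost without any 1 of the 4. None of these values changed direction in these fits.

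**Figure D5:**
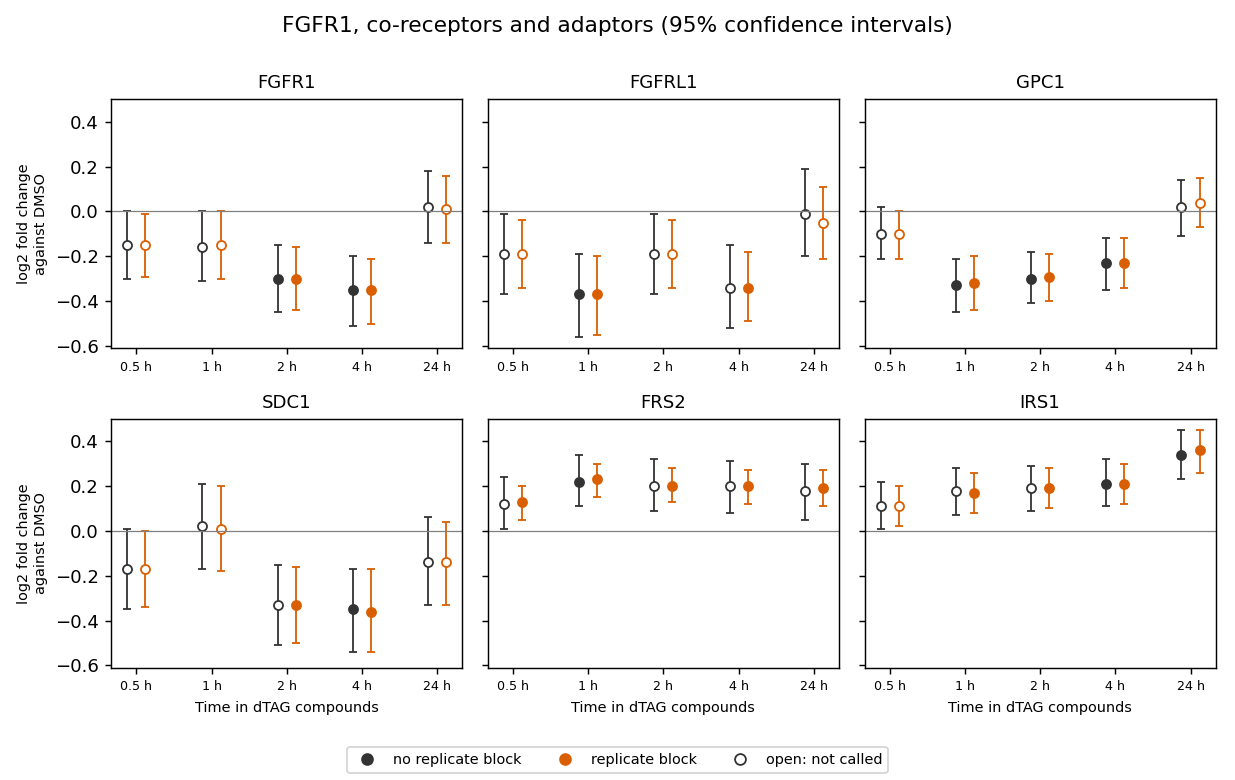
Log2 fold change against DMSO at 5 times, with 95% confidence intervals, for FGFR1, the co-receptor genes FGFRL1, GPC1 and SDC1 and the adaptor genes FRS2 and IRS1, without (black) and with (orange) the replicate block, filled where the adjusted p was under 0.1. The first 4 lie below 0 at 2 and 4 h and FRS2 and IRS1 lie above 0, IRS1 reaching 0.34 at 24 h. The genes shown were picked from those that passed. The adaptors NCK2 and SOS2, which passed as lower, and the co-receptors that did not pass are not shown.

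Of 47 other receptor tyrosine kinase genes, 43 were kept. EPHA8, an ephrin receptor, rose from 14.5 CPM in DMSO to 18.4, 20.3, 20.9 and 21.7 CPM (means) at 1, 2, 4 and 24 h, with log2 fold changes of 0.34, 0.49, 0.53 and 0.58. The 24 h call of EPHA8 held without each replicate (largest adjusted p = 0.0515). EPHB3 fell at 1 h (-0.35 ± 0.08, adjusted p = 0.031, and 0.258 and 0.374 without replicate 2 or 4). With the block the 1 h call of EPHB3 held without each replicate (largest adjusted p = 0.0553). EPHB3 also passed with the block at 2 h and 4 h (-0.25 and -0.22, adjusted p of 0.0225 and 0.0693). No other gene of this list passed against DMSO without the block. With the block alone EPHA4 was lower at 4 h (-0.20 ± 0.05, adjusted p = 0.05). The collagen receptor gene DDR1 was lower at 2 h, also with the block alone (-0.19 ± 0.05, adjusted p = 0.0596). Both calls were lost without replicate 2 or 3, that of DDR1 also without replicate 4. ALK passed with the block alone at 1 h, as higher.

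The genes most like FGFR1 were sought among 6740 kept protein-coding genes with at least 100 counts on average and no overlap on the same strand, by Pearson's r of log2 CPM centred within replicate number over 23 libraries that share their depth and harvests. They were SLC19A1, a folate carrier (r = 0.80), PLXND1, a semaphorin receptor (r = 0.79), and RBBP8NL (r = 0.78). These genes were chosen over the same libraries, treated groups included. Changes like those of FGFR1 therefore follow in part from the choice and are a description. PLXND1 changed by -0.58 at 2 h and -0.59 at 4 h and RBBP8NL by -0.64 and -0.61, all of which passed. SLC19A1 stood at -0.08 and -0.11 and did not pass. At 24 h PLXND1 stood at -0.06, RBBP8NL at -0.35 and SLC19A1 at 0.05, none of which passed.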

How the data were processed

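PRO-seq was performed in T47D dTAG-TRPS1 Clone 28 cells (23 libraries). The methods state that adapters were trimmed, PCR duplicates were collapsed by a molecular identifier, reads of ribosomal DNA were discarded, and alignment and counting in genes followed. The submitters' processing notes name cutadapt 1.8.1, Bowtie2 2.4.4, SAMtools 1.9 and hg38. The values the authors deposited are raw read counts per gene, not normalized. Annotation version and use of strand were not given in the sources used here.

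Gene symbols, spans and exons were taken from GENCODE, which held 60463 of 60605 identifiers. Tests were run in R 4.3.3 and edgeR 4.0.16 (alternative: DESeq2 1.42.0). Genes were filtered by filterByExpr (minimum count 10, total 15), which kept 26057 genes over 23 libraries and 25255 over the 20 libraries to 4 h. Libraries were scaled by TMM, and each time was compared with DMSO by the quasi-likelihood test, all groups sharing the fit (two-sided, Benjamini-Hochberg over all kept genes, calls under 0.1). CPM use the TMM-scaled totals. The course from DMSO to 4 h was tested over all its times at once. The comparisons of 0.5 h and 4 h with DMSO, without the block, were tested on simulated counts with changes set at 4 h and no replicate effect. The blocked fit and the test over the course were not tested in this way.

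Replicate numbers were taken to mark shared harvests, which the labels do not state. A fit with the number as a block was therefore made as well. Deviations from group means correlated by 0.287 on average between libraries of the same number and by -0.0825 between others. Of 55 same-numbered pairs 37 exceeded 0.1, and the mean for a single number ran from 0.0896 to 0.578. All 10 receptor genes are described. From each of the other lists the genes that passed without the block are described, with blocked calls where fewer than 4 did, up to 4 a list. Some further genes with blocked calls are named without values. The genes and lists were chosen with earlier results of these data known. Alternatives were other scalings, no filter on low counts, DESeq2, fits of the compared groups alone, removal of mitochondrial genes and leaving out each replicate.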

Additional observations from a re-analysis of the deposited data

Results flagged for a closer look

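In 4 of 50 groups of 4 libraries, 1 library stood apart from the other three of its group by Dixon's test, where chance gives about 1 in 20 groups, or 2.50. ERBB3 at 1 h was highest in replicate 1 at 97.3 CPM. FGFR2 at 1 h was highest in replicate 1 at 82.6 CPM, and FGFR4 at 2 h in replicate 1 at 7.74 CPM. ERBB4 at 0.5 h was lowest in replicate 2 at 1490 CPM. None of these 4 genes passed against DMSO in these groups.

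The response at 24 h differed from an earlier time, by the contrast between the treated groups, for some of the genes described above. FGFR1 was higher at 24 h than at 4 h by 0.37 on the log2 scale without the replicate block and by 0.36 with it (edgeR adjusted p of 0.0428 and 0.0121). Against 0.5 h, the differences without the block were 0.23 for IRS1, 0.30 for PIK3R3, 0.14 for LRIG1 and 0.31 for EPHA8, with adjusted p of 0.0386, 0.0144, 0.0479 and 0.0644. With the block, ERBB3 differed by 0.18, IRS1 by 0.25, PIK3R1 by 0.12, PIK3R3 by 0.28, PIK3CA by 0.20, SOS2 by 0.13, LRIG1 by 0.14, CBL by 0.17 and EPHA8 by 0.31, all higher at 24 h. AREG differed by -0.23, lower at 24 h. In the same lists SDC4, SPRY1, SPRED1 and RASA1 also passed with the block as higher, and IRS2 as lower. Of all genes 1.99% passed between 24 h and 0.5 h without the block and 6.34% with it.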

How the results depend on the processing

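The replicate block left 1 receptor gene called at 2 h, at 4 h and between 24 h and 4 h, and gave 1 over the course to 4 h and 1 between 24 h and 0.5 h in place of 0, and 5, 8, 6, 7 and 6 pathway genes at 0.5, 1, 2, 4 and 24 h in place of 0, 4, 1, 3 and 2. It changed no other call of a receptor gene. DESeq2 gave 1 receptor gene over the course to 4 h, and 1 and 3 pathway genes at 0.5 and 2 h. Size factors by median of ratios gave 1 pathway gene at 24 h. Total counts as scaling, and fits of the compared groups alone, each gave 0 receptor genes at 2 h, at 4 h and between 24 h and 4 h, and 1, 0 and 1 pathway genes at 1, 4 and 24 h, the second also 0 at 2 h. Without the filter on low counts there were 0 receptor genes at 2 h, and 1, 0 and 1 pathway genes at 1, 4 and 24 h, over more genes tested. The cause of the other losses was not tested.

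Leaving out each replicate, with and without the block, gave 0 to 2 receptor genes at 2 h and at 4 h, 0 to 1 at 24 h, over the course, between 24 h and 0.5 h and between 24 h and 4 h, and 0 to 4, 0 to 6, 0 to 8, 0 to 7 and 0 to 5 pathway genes at the 5 times. The second receptor gene was FGFR3, without replicate 1 and with the block. Removing mitochondrial genes changed no count. FGFR1 at 2 and 4 h kept its direction in all 15 alternatives.

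Of 1062 single-gene values recomputed, 73 lost and 30 gained a call, and 58 changed sign, none of them called in either fit and none above 0.10 in size. Those 58 belong to 19 values of at most 0.06 in size. Leaving out a replicate gave ranges of -0.06 to 0.10 for EGFR at 0.5 h and -0.00 to 0.11 at 1 h, for ERBB2 -0.02 to 0.04 at 2 h, -0.04 to 0.03 at 4 h and -0.04 to 0.02 at 24 h, for ERBB3 -0.01 to 0.10 at 24 h, for ERBB4 -0.02 to 0.08 at 2 h, for FGFR1 -0.05 to 0.06 at 24 h, for FGFR2 -0.09 to 0.04 at 1 h, -0.01 to 0.08 at 4 h and -0.07 to 0.01 at 24 h, for FGFR3 -0.20 to 0.04 at 0.5 h and -0.17 to 0.04 at 1 h (from -0.21 and -0.18 with the block), for FGFR4 -0.09 to 0.07 at 0.5 h (-0.08 to 0.08 with the block), for IGF1R -0.01 to 0.01 at 0.5 h, and for INSR -0.05 to 0.05, -0.00 to 0.06, -0.10 to 0.09 and -0.03 to 0.05 at 0.5, 2, 4 and 24 h. Sign also changed for ERBB2 at 24 h with the block (0.01), total counts (0.02) and no filter (0.00), FGFR2 at 4 h with total counts (-0.02), IGF1R at 0.5 h with total counts (-0.01) and DESeq2 (-0.00), and INSR at 0.5 h without the filter (0.01).

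FGFR4, FGFR3 and EGFR had the fewest counts, with as few as 27, 86 and 89 in a library. Without a 24 h library of replicate 1, the block compares 24 h over 3 replicate numbers.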
